A study of Mus musculus with 16 samples.

Results

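The 10 genes followed belong to the major histocompatibility complex (MHC) and to antigen presentation, measured in mouse rotator cuff muscle: the class I heavy chains H2-K1 and H2-D1, their light chain B2m, the peptide transporter subunits Tap1 and Tap2, the loading factor Tapbp, the class II chains H2-Aa, H2-Ab1 and H2-Eb1, and the invariant chain Cd74. They were chosen by name, with earlier results of these data known, and are 10 of the 11710 genes in the count table. Messenger RNA was sequenced in 16 samples in 4 groups of 4, crossing strain with surgery. The groups were unoperated C57BL/6J (BL6), operated C57BL/6J, unoperated MRL/MpJ (MRL) and operated MRL/MpJ. Both are inbred strains with no engineered allele named in the labels, and surgery combined removal of a rotator cuff tendon with denervation of its muscle. The series text names the infraspinatus and the sample labels the supraspinatus. The age and sex of the mice and the time after surgery were not used here, and no label states that the samples of a group are separate mice, so p-values measure the spread between these samples, which may be technical.

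MHC class I molecules pair a heavy chain with beta-2 microglobulin and show peptides from inside the cell to CD8 T cells; nearly all nucleated cells carry them. The peptides are cut by the proteasome, carried into the endoplasmic reticulum by the Tap1 and Tap2 transporter, and loaded with the help of Tapbp (tapasin). Class II molecules pair an alpha and a beta chain, are escorted by the invariant chain Cd74, and show peptides from outside the cell to CD4 T cells; macrophages, dendritic cells and B cells carry most of them, while healthy muscle fibres carry little class I and no class II. The mouse MHC, called H2, is highly polymorphic, and BL6 carries the b haplotype and MRL the k haplotype.

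The promoters of H2-K1, B2m, H2-Aa and H2-Eb1 are shown because their genes rose together in both strains. Each sequence is the 150 bases before the RefSeq transcription start (GRCm38.p6, reference BL6 sequence), written 5′ to 3′ on the gene's strand. Capitals mark matches to ATTGG, the core of the CCAAT (Y) box, in either direction, matches to TGACG, the cyclic AMP response element core of the X2 box, in either direction, and matches to GAAA, any 2 bases and GAAA again, a repeat bound by interferon regulatory factors. The intervals are chr17:34000348-34000497 (minus strand) for H2-K1, chr2:122147537-122147686 (plus strand) for B2m, chr17:34287824-34287973 (minus strand) for H2-Aa and chr17:34305717-34305866 (plus strand) for H2-Eb1.
H2-K1: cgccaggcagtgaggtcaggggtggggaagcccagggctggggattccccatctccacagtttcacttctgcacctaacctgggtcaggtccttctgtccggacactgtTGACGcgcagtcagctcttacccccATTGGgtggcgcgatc
B2m: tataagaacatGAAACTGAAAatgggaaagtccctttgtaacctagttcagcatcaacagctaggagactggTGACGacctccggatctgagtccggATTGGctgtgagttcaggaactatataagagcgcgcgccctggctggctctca
H2-Aa: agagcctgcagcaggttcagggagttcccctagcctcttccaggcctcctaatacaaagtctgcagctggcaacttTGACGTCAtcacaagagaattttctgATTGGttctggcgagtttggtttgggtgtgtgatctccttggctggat
H2-Eb1: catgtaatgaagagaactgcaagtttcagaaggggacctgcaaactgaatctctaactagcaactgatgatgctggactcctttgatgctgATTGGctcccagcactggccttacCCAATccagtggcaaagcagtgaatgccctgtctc

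In the 250 bases before the start, ATTGG on either strand was found in all 7 members that the RefSeq promoter table holds (these 4, H2-D1, Tap1 and Tapbp), beside 34.5% of 27025 promoters in the table. TGACG was found in 5 of the 7, beside 17.9% of promoters, and the GAAA repeat in 1 of the 7, B2m, beside 3.04%. The class I genes shared a spacing: the first base of ATTGG lay 25 bases after the first base of TGACG in H2-K1, H2-D1 and B2m, and 26 bases after it in H2-Aa. A spacing of 25 occurred in 15 of the 27025 promoters (0.0555%), H2-M3, another class I gene, among them, and a spacing of 25 or 26 in 23 (0.0851%). The spacing was chosen after the matches had been seen, and a match is a description of letters, not of binding. The H2-D1 window is not printed because the gene annotation places it in a transcribed exon.

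Per kilobase of exon, the order of the members in unoperated BL6 muscle put the light chain first. B2m stood at 101 ± 5.06 CPM (counts scaled to the library's effective size) per kilobase (mean ± SD, n = 4), H2-D1 at 30.5 ± 1.91, H2-K1 at 25.4 ± 2.42 and Cd74 at 24.8 ± 11.8. H2-K1 and Cd74 are neighbours in that order that did not differ beyond their spread. Tapbp followed at 10.8 ± 0.750, the 3 class II chains lay between 5.34 and 8.27 with overlapping ranges, and the transporter subunits were lowest, Tap2 at 3.74 ± 0.487 and Tap1 at 0.958 ± 0.185. In operated BL6 muscle B2m was again the highest, at 289 ± 79.8, with Cd74 next at 124 ± 107. That place rests on replicate 4: without it Cd74 stood at 71.0 ± 19.9 and H2-D1 at 65.6 ± 7.48 (n = 3), with overlapping ranges, and in replicate 2 H2-D1 (57.5) exceeded Cd74 (48.0). H2-D1 had exchanged its place with H2-K1 in MRL, where unoperated muscle held 16.9 ± 3.08 for H2-D1 and 20.7 ± 3.72 for H2-K1, values within each other's spread.

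Total counts per sample ran from 24323862 to 43552964. Operated BL6 replicate 4 and unoperated MRL replicate 1 stood apart in the summed CPM of 7 macrophage genes (Adgre1, Itgam, Cd68, Csf1r, Cd163, Mrc1 and Lyz2): 519 in the first, beside 81.5 to 153 in the other operated BL6 samples, and 298 in the second, beside 73.1 to 95.4 in the other unoperated MRL samples. Unoperated BL6 replicate 1 stood apart too, at 138 beside 36.8 to 55.0, and had the highest class II values of its group. The fits of members and listed genes were repeated without each of these 3 samples. For some of the genes named below the value is given where a call changed or a fold moved by over 1.5 times. A gene without such a value need not have kept all its calls. Genes of muscle fibres led the libraries, with Ckm (muscle creatine kinase), Acta1 (skeletal actin), Myh1, Myh4 (fast myosins) and Tnnt3 (fast troponin) summing to 40415 CPM at the least.

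All 10 members rose with surgery in BL6, and all 10 rose in MRL (edgeR quasi-likelihood test, called at an adjusted p under 0.05 over 11709 genes). Of all genes tested, 67.9% were called in BL6, 35.1% as higher, and 45% were called in MRL, 22.3% as higher. The members' median log2 fold change was 1.43 in BL6 and 1.23 in MRL, beside 0.04 and 0.01 over all genes. The class II chains and Cd74 had larger fold changes than the class I chains, and the class I chains larger ones than Tap2 and Tapbp, in both strains. Operated and unoperated samples did not overlap for 9 of 10 members in BL6 (27.5% of all genes were higher without overlap), Tap1 being the exception, and for 10 of 10 in MRL (17%). In bulk tissue more cells of a type and more RNA per cell cannot be told apart.

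**Figure D1:**
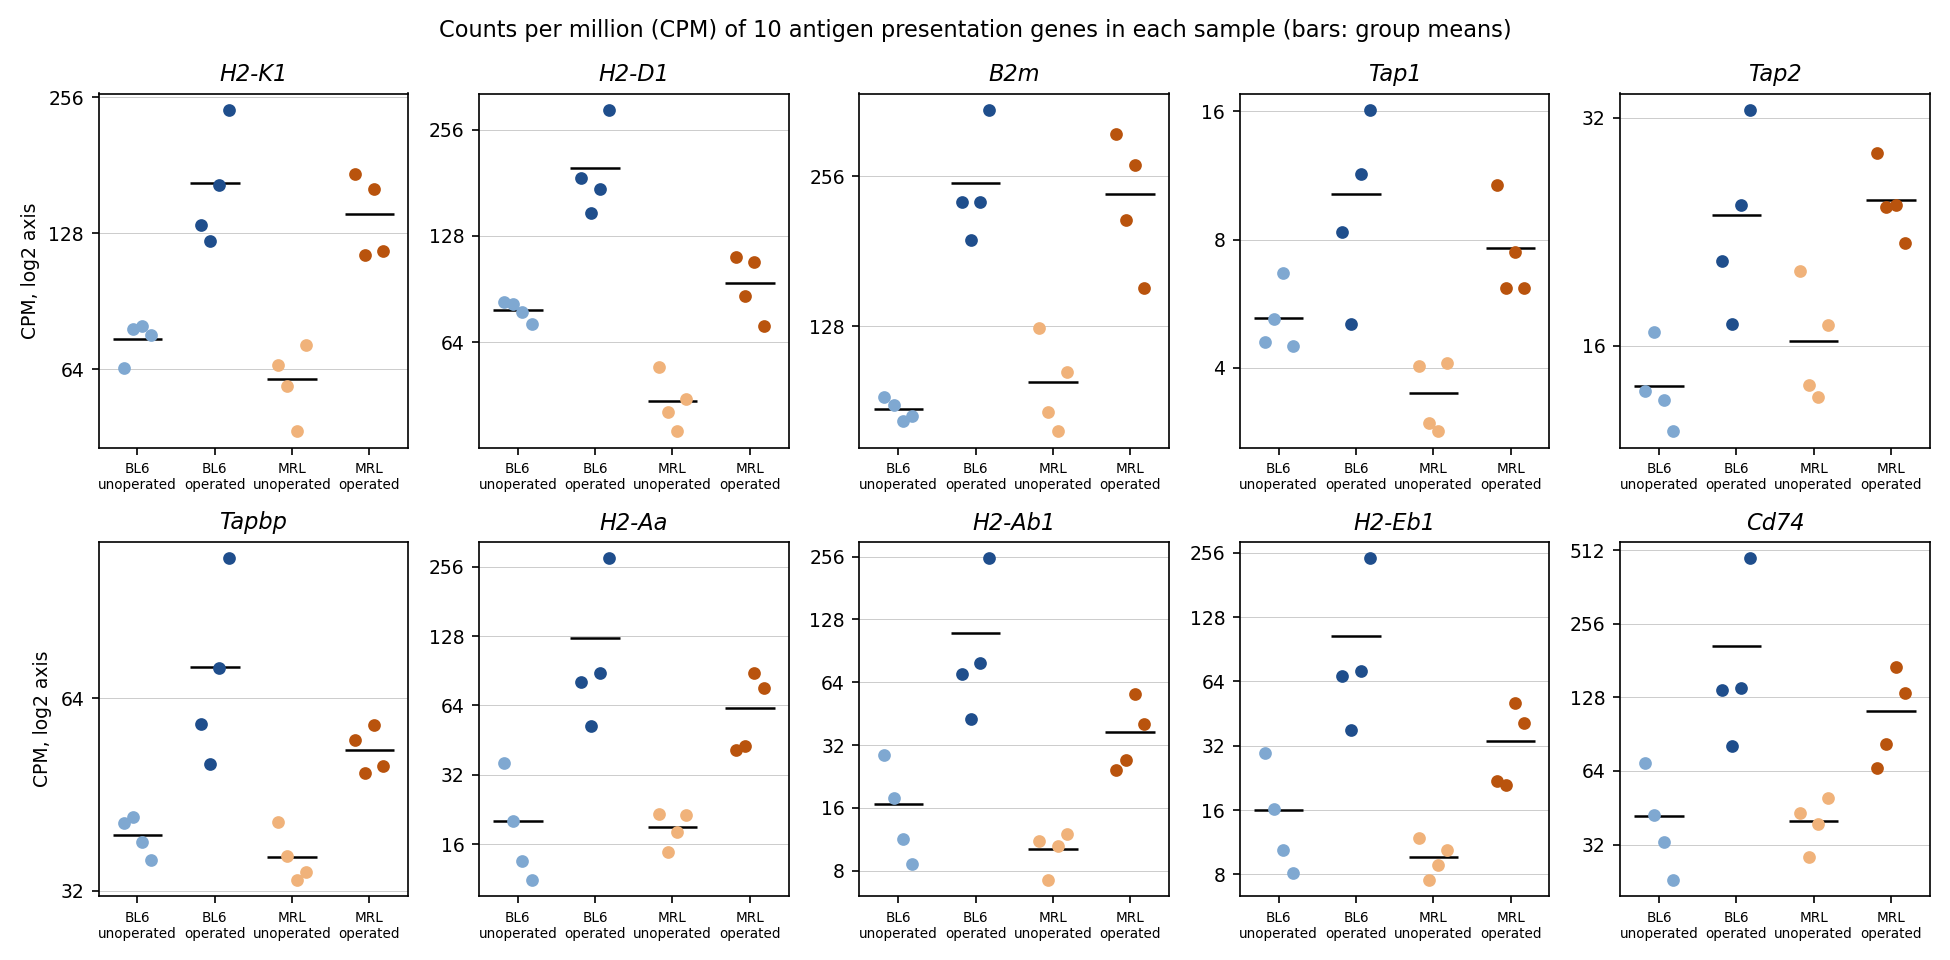
CPM (log2 axis) of the 10 genes in each of 16 samples, with a point per sample in replicate order and a bar at the group mean of 4. Operated samples lie above unoperated samples of the same strain except for Tap1 in BL6; operated BL6 replicate 4 is the highest point of every panel.

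H2-K1, a classical class I heavy chain (chr17:33996017-34000347, minus strand), stood at 64.3, 78.7, 79.8 and 76.2 CPM in unoperated BL6 replicates 1 to 4 and at 134, 123, 164 and 240.3 in operated BL6. In MRL it stood at 65.5, 58.8, 46.6 and 72.3 without surgery and at 173, 115, 160.1 and 117 with it. In both strains every operated sample exceeded every unoperated one, and the log2 fold change was 1.14 ± 0.21 (SE; adjusted p = 0.000236) in BL6 and 1.21 ± 0.21 (adjusted p = 0.00107) in MRL.

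H2-D1, the other classical heavy chain of these strains (chr17:35262730-35267499, plus strand), stood at 82.8, 82.0, 77.8 and 72.1 CPM in unoperated BL6 and at 186, 148, 173 and 292 in operated BL6. The MRL samples stood at 54.4, 40.5, 35.7 and 44.1 without surgery and at 111, 86.2, 108 and 70.9 with it. The operated and unoperated groups did not overlap in either strain, and the MRL samples lay under the BL6 samples of the same surgical state. Surgery raised it by 1.34 ± 0.20 on the log2 scale in BL6 (adjusted p = 6.1e-05) and by 1.11 ± 0.20 in MRL (adjusted p = 0.00135).

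B2m, the light chain shared by all class I molecules (chr2:122147686-122153083, plus strand), stood at 92.4, 89.3, 82.9 and 84.6 CPM in unoperated BL6 and at 227, 191, 227 and 348 in operated BL6. MRL muscle held 127, 86.3, 78.8 and 104 without surgery and 311, 209, 269.8 and 153 with it. Groups differing in surgery did not overlap, whereas the strains overlapped in both states. Its log2 fold change was 1.51 ± 0.22 in BL6 (adjusted p = 5.85e-05) and 1.25 ± 0.22 in MRL (adjusted p = 0.00124).

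Tap1, a subunit of the peptide transporter (chr17:34187553-34197225, plus strand), ranged from 4.49 to 6.69 CPM in unoperated and from 5.07 to 16.2 in operated BL6, the ranges overlapping through operated replicate 2. It ranged from 2.84 to 4.12 and from 6.16 to 10.8 in unoperated and operated MRL. It rose by 0.97 ± 0.29 in BL6 (adjusted p = 0.0081) and by 1.13 ± 0.29 in MRL (adjusted p = 0.0077) on the log2 scale. Tap2, the partner subunit (chr17:34203527-34216321, plus strand), rose by 0.75 ± 0.18 (adjusted p = 0.00179) and 0.61 ± 0.18 (adjusted p = 0.0125), from at most 16.7 CPM to at least 17.1 in BL6 and from at most 20.1 to at least 21.9 in MRL. Tapbp, which holds empty class I molecules at the transporter (chr17:33915899-33929292, plus strand), rose by 0.87 ± 0.17 (adjusted p = 0.000469) and by 0.55 ± 0.17 (adjusted p = 0.018), from at most 41.7 CPM to at least 50.6 in BL6 and from at most 41.0 to at least 49.0 in MRL.

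H2-Aa, the alpha chain of the class II molecule I-A (chr17:34282744-34287823, minus strand), stood at 36.1, 20.2, 13.6 and 11.2 CPM in unoperated BL6 and at 80.9, 52.1, 88.1 and 279 in operated BL6. The MRL values were 21.7, 14.7, 18.2 and 21.4 without surgery and 40.9, 42.9, 88.9 and 76.1 with it. Operated and unoperated samples did not overlap in either strain, operated BL6 replicate 4 lay far above its group, and unoperated BL6 spread over a wider range than unoperated MRL. The log2 fold change was 2.63 ± 0.49 (adjusted p = 0.000298) in BL6 and 1.71 ± 0.47 (adjusted p = 0.0102) in MRL.

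H2-Ab1, the I-A beta chain (chr17:34257689-34269419, plus strand), stood at 28.7, 17.9, 11.4 and 8.63 CPM in unoperated BL6 and at 69.9, 42.5, 78.9 and 252 in operated BL6. MRL muscle held 11.2, 7.23, 10.5 and 11.9 without surgery and 24.4, 27.1, 56.4 and 40.3 with it. The rise was 2.74 ± 0.50 (adjusted p = 0.000274) in BL6 and 1.86 ± 0.49 (adjusted p = 0.00836) in MRL on the log2 scale. The groups differing in surgery did not overlap.

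H2-Eb1, the beta chain of the class II molecule I-E (chr17:34305867-34316674, plus strand), stood at 29.6, 16.2, 10.4 and 8.09 CPM in unoperated BL6 and at 67.7, 38.0, 71.3 and 241 in operated BL6. The MRL samples stood at 11.9, 7.54, 8.84 and 10.4 without surgery and at 21.9, 21.1, 50.5 and 40.9 with it. The log2 fold change was 2.71 ± 0.53 (adjusted p = 0.000444) in BL6 and 1.80 ± 0.52 (adjusted p = 0.0126) in MRL. It followed H2-Ab1 closely, again with no overlap between operated and unoperated samples.

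Cd74, the invariant chain, stood at 68.9, 42.4, 32.6 and 22.9 CPM in unoperated BL6 and at 137, 80.6, 140.2 and 475 in operated BL6. The MRL values were 42.9, 28.4, 38.7 and 49.5 without surgery and 65.9, 82.8, 169.8 and 133 with it. Operated samples lay above unoperated ones in both strains, with a log2 fold change of 2.32 ± 0.49 (adjusted p = 0.000813) in BL6 and 1.502 ± 0.48 (adjusted p = 0.0203) in MRL.

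Without operated BL6 replicate 4 the BL6 log2 fold changes fell to 1.86 for H2-Aa, 1.94 for H2-Ab1, 1.88 for H2-Eb1 and 1.51 for Cd74, and all 10 members were still called as higher. Without unoperated BL6 replicate 1 they went the other way, to 3.07 for H2-Aa, 3.14 for H2-Ab1, 3.19 for H2-Eb1 and 2.68 for Cd74. Tap1 in BL6 fell to 0.65 without operated BL6 replicate 4, with an adjusted p of 0.0415 (0.000713 to 0.0429 over 25 alternative settings). In MRL the calls of Tapbp and Cd74 were the least stable: Tapbp lost its call in 4 of 25 alternatives and Cd74 in 3, among them the fits without unoperated MRL replicate 3 (adjusted p = 0.0554 for Tapbp and 0.0506 for Cd74; over all alternatives 0.00111 to 0.0794 and 0.00323 to 0.0715). In the authors' deposited table all 10 members were higher at a false discovery rate under 0.05 in both strains, with log2 fold changes of 0.59 to 2.16 in BL6 and 0.69 to 2.12 in MRL.

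**Figure D2:**
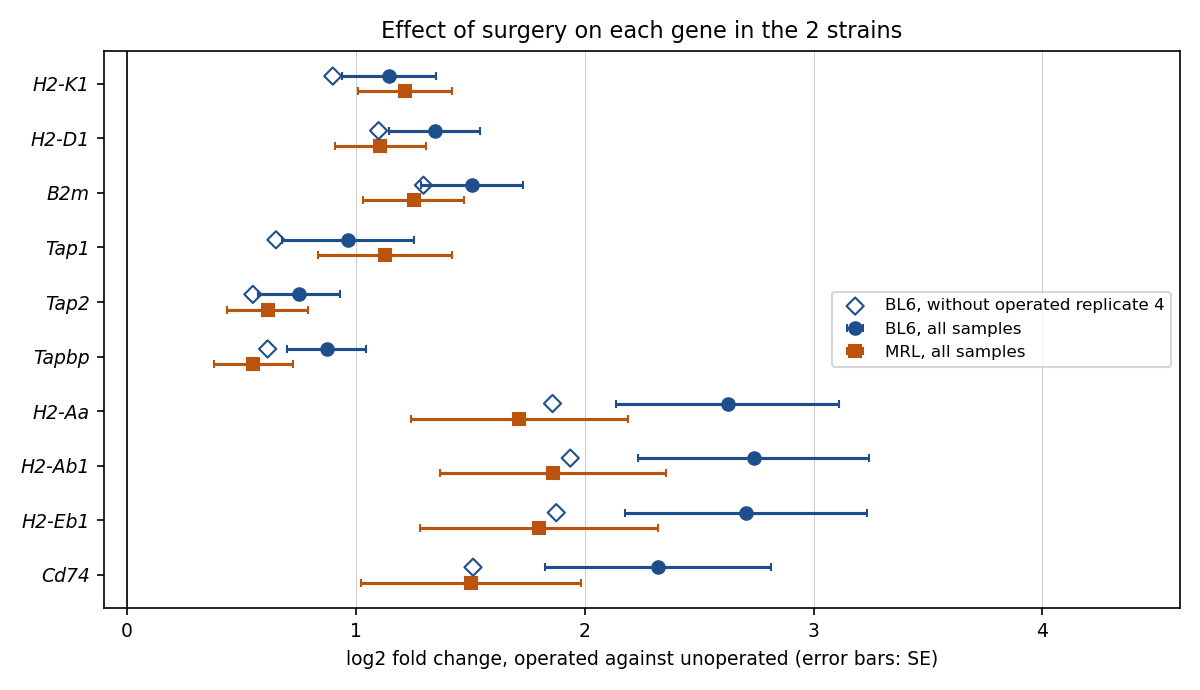
Log2 fold change of operated against unoperated samples for each member (error bars: SE of the edgeR fit), in BL6 (circles), in BL6 without operated replicate 4 (open diamonds) and in MRL (squares). The class II chains and Cd74 lie at 2.32 to 2.74 in BL6 with all samples and at 1.51 to 1.94 without replicate 4, next to the MRL values of 1.502 to 1.86.

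Crossing strain with surgery asks whether the strains' responses differ, and no member was called for the difference between the surgery effects. The difference (MRL minus BL6) ran from -0.91 ± 0.65 for H2-Aa to 0.16 ± 0.41 for Tap1 on the log2 scale, with adjusted p from 0.479 to 0.916. No member had an unadjusted p under 0.05 (the lowest was 0.182), and 0 of 10 were called by DESeq2 and by limma voom as well; 0.248% of all genes were called by edgeR, and 15.7% had an unadjusted p under 0.05. For the 4 class II genes the difference was between -0.91 and -0.82, and it was -0.14 for H2-Aa, -0.07 for H2-Ab1, -0.07 for H2-Eb1 and -0.002 for Cd74 without operated BL6 replicate 4. Without unoperated BL6 replicate 1 it was -1.35, -1.27, -1.38 and -1.17 for the same genes, so single samples moved it in both directions. The SE of 0.65 to 0.71 for these 4 genes leaves room for differences of either sign. The effects in BL6 and MRL share no samples.

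Between the strains, H2-D1 was the member that differed in both surgical states. It was lower in MRL by 0.85 ± 0.20 on the log2 scale in unoperated muscle (adjusted p = 0.0104), the single member called there (10.4% of all genes were called, 5.36% as lower), and by 1.09 ± 0.20 in operated muscle (adjusted p = 0.00152). The MRL and BL6 samples did not overlap in either state, as was so for 12.9% of all genes as lower in unoperated and 6.16% in operated muscle. Without unoperated MRL replicate 1 the unoperated difference was -0.98 (adjusted p = 0.00817), and without operated BL6 replicate 4 the operated difference was -0.85 (adjusted p = 0.00254). Over 25 alternatives the adjusted p ran from 0.000516 to 0.109 and from 2.06e-06 to 0.0363. Its call in unoperated muscle was lost with total counts as the only scaling. Tap1 was also lower in every unoperated MRL sample than in any unoperated BL6 sample, with a log2 difference of -0.59 ± 0.29 (adjusted p = 0.234).

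In operated muscle H2-Ab1 and H2-Eb1 were called lower in MRL as well, by 1.58 ± 0.48 (adjusted p = 0.0418) and by 1.64 ± 0.51 (adjusted p = 0.0451), which makes 3 of 10 members beside 12.9% of all genes (5.27% as lower). Their ranges overlapped between the strains. Without operated BL6 replicate 4 the differences were -0.78 (adjusted p = 0.172; 0.00571 to 0.18 over the alternatives) and -0.81 (adjusted p = 0.193; 0.0153 to 0.195). H2-Ab1 lost its call in 15 of 25 alternatives and H2-Eb1 in 16. In the authors' deposited table H2-D1 was the one member called in each strain comparison. The comparisons of unoperated and operated strains use the same samples as the surgery comparisons, in other pairs.

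Ratios between members within a sample do not change when both rise by the same factor, and several of them separated the strains. The log2 ratio of H2-Aa to H2-Ab1 CPM, the 2 chains of I-A, was 0.15 to 0.38 in the 8 BL6 samples and 0.66 to 1.03 in the 8 MRL samples, with no overlap. H2-Ab1 to Cd74 was lower in MRL by 0.60 in unoperated and by 0.68 in operated muscle, and H2-Eb1 to Cd74 by 0.60 and 0.74, again with no overlap within either surgical state. H2-Aa to Cd74 and H2-Eb1 to H2-Ab1 overlapped between the strains in both states. Relative to the alpha chain and the invariant chain, both beta chains thus had fewer counts in MRL. These are descriptions without a test.

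The same held for H2-D1 against its partners. The log2 ratio of H2-D1 to B2m was -0.39 to -0.09 in BL6 and -1.48 to -1.09 in MRL, and H2-D1 made up 48.6% to 58.2% of the H2-K1 and H2-D1 counts in BL6 and 37.8% to 45.4% in MRL. H2-K1 to B2m overlapped between the strains. Surgery moved the H2-Ab1 to Cd74 ratio upward in both strains without overlap, by 0.45 (BL6) and 0.37 (MRL), and left the H2-Aa to H2-Ab1 ratio within overlapping ranges. Ratios of CPM between genes of different length are compared here across samples, not as relative levels of the genes.

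**Figure D3:**
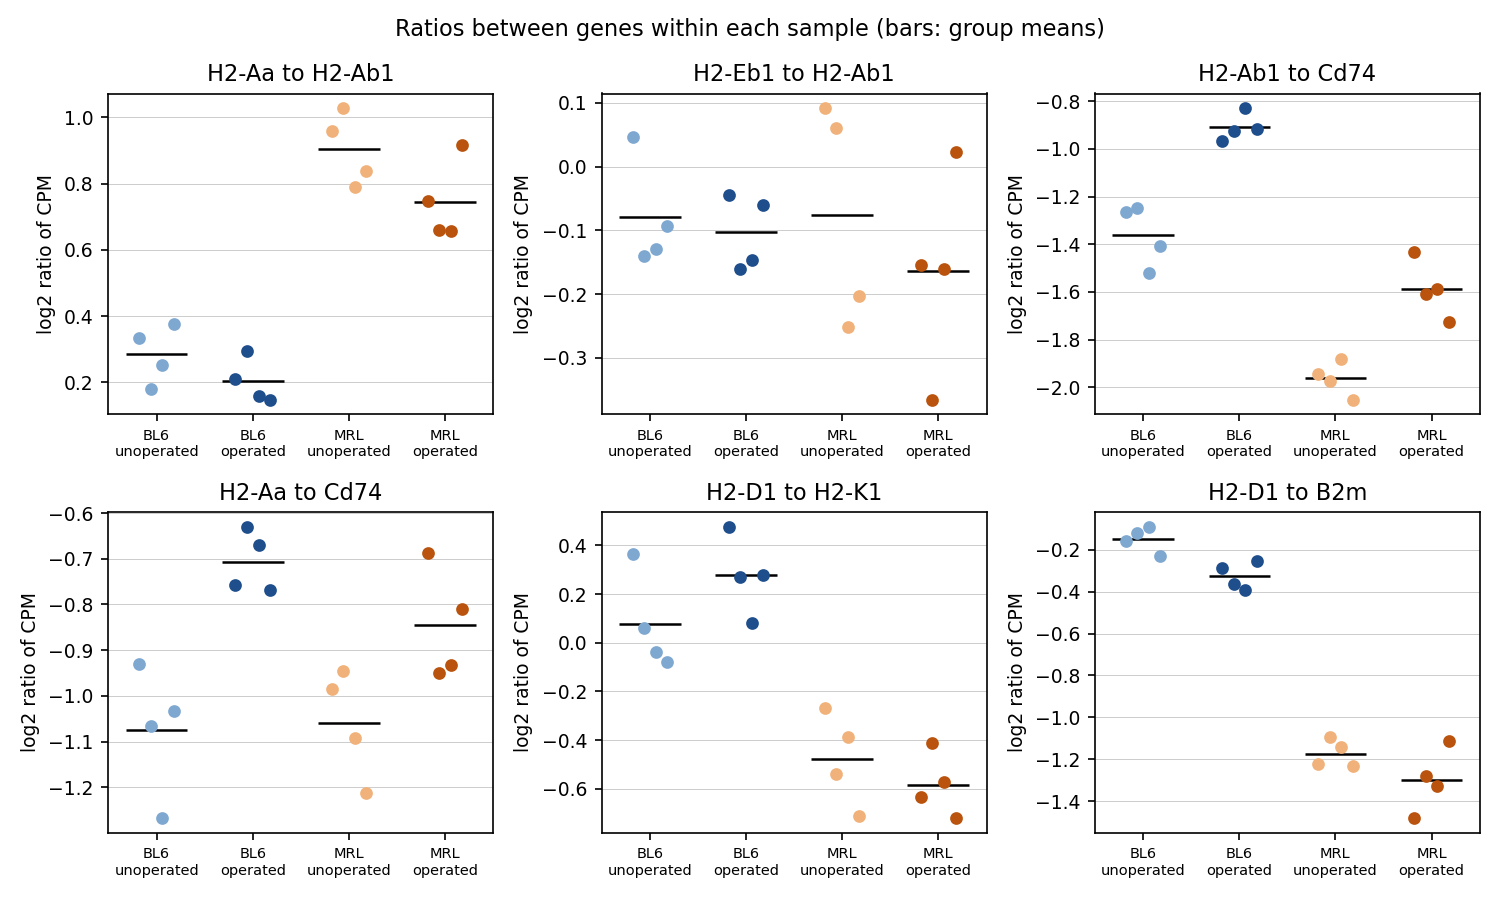
Log2 ratio of CPM between 2 genes in each sample (points, in replicate order; bars: means of 4). H2-Aa to H2-Ab1 lies at 0.15 to 0.38 in BL6 and at 0.66 to 1.03 in MRL, and H2-D1 to B2m at -0.39 to -0.09 and at -1.48 to -1.09, whereas H2-Eb1 to H2-Ab1 and H2-Aa to Cd74 overlap between strains.

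The submitters' processing notes name the mm10 build, which is the genome of the BL6 strain. Reads from the k haplotype of MRL can differ from it in the H2 genes, and a lower level and fewer mapped reads of an allele cannot be told apart in these counts. A measure of shared sequence was taken from the reference transcripts instead. Of all 50-base windows in its transcripts, 12.8% of those of H2-D1 and 9.63% of those of H2-K1 also occur in a transcript of another gene, chiefly other class I genes such as H2-Q1 and H2-Q10, and 3.59% and 0.957% of the 100-base windows do. For H2-Ab1, H2-Eb1, Cd74 and B2m no window of either length is shared, and for H2-Aa 0.514% of the 50-base windows are. Values for H2-K1 and H2-D1 are therefore uncertain as to how reads were split among class I genes. Tapbp shares 23.2% of its 50-base windows, mostly with the antisense gene Gm19412, whose exons cover 24.9% of its exon bases. Tap1 shares 3.87% of its exon bases with Psmb9 on the opposite strand and Tap2 14.1% with Gm15821. Since the use of strand in counting is not given in the sources used here, reads from these partners cannot be told apart.

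The sum over class I heavy chain genes does not depend on how the counted reads are split among them, though reads dropped for mapping to several places would be missing from it. Summed over H2-K1, H2-D1 and 10 further H2 class I genes, the BL6 level was 199 ± 11.5 CPM without surgery and 454 ± 139 with it (SD, n = 4). The MRL level was 148 ± 21.1 and 324 ± 62.7 CPM. The ratio of means was 2.28 for surgery in BL6 and 2.18 in MRL, and without operated BL6 replicate 4 the log2 fold change in BL6 was 0.96 in place of 1.19. The MRL sum was 0.746 of the BL6 sum without surgery, with no overlap, and 0.713 of it with surgery, with overlap. H2-K1 and H2-D1 took 75.1% to 82.2% of the sum in BL6 and 68.6% to 73.8% in MRL.

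Other H2 genes marked the haplotypes more sharply. H2-Ea-ps, the annotation's name for the I-E alpha chain gene, which is not made from the b haplotype because its promoter region is deleted there, had 0 counts in all 4 unoperated BL6 samples and 1 count in operated BL6 (replicate 2). In MRL it stood at 4.62, 2.56, 4.87 and 5.01 CPM without surgery and at 8.53, 9.78, 20.9 and 17.5 with it, groups that do not overlap. Against a floor of 3 counts per library it was at least 47.3-fold higher in unoperated MRL than in unoperated BL6, and surgery raised it in MRL by 1.73 ± 0.33 on the log2 scale (adjusted p = 0.00239), beside 1.71 for H2-Aa and 1.80 for H2-Eb1. It amounted to 17.3% to 26.8% of the H2-Aa CPM in the MRL samples. CPM is not scaled for length, so this share is not a relative level of the genes. The transcripts of H2-Aa hold 3892 windows of 50 bases and those of H2-Ea-ps 987. Of the H2-Ea-ps windows none is shared with another gene.

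Among the other class I heavy chains, 12 of the 13 listed genes were in the table. In each strain 9 of the 12 rose with surgery and 1 fell, while of all genes 35.1% rose in BL6 and 22.3% in MRL. Without operated BL6 replicate 4, 8 rose in BL6 and 10 in MRL. Without unoperated MRL replicate 1, 8 rose in BL6 and 7 in MRL. H2-M3 (1.18 and 1.06), H2-T23 (1.23 and 1.10), H2-T22 (0.79 and 0.95) and Cd1d1, which presents lipids (2.23 and 2.48), rose in both strains on the log2 scale. Of their 50-base windows, 0.576% in H2-M3, 14.5% in H2-T23, 53.5% in H2-T22 and 19.1% in Cd1d1 are shared with other genes. The BL6 value of Cd1d1 was 1.19 without operated replicate 4 (adjusted p = 0.0307). Mr1, which presents vitamin B metabolites, fell by 1.22 ± 0.13 in BL6 (adjusted p = 1.26e-05) and by 0.73 ± 0.13 in MRL (adjusted p = 0.00139). Between unoperated strains 3 of the 12 were higher and 3 lower in MRL, and 2 were higher and 3 lower between operated strains. The called shares were 50% and 41.7%, beside 10.4% and 12.9% of all genes. Without unoperated MRL replicate 1 the unoperated counts were 2 and 1. H2-Q2 had 1 count in unoperated and 1 in operated BL6 and stood at 3.71 to 9.30 CPM in MRL. Of its 50-base windows 16.1% are shared with other genes. H2-Q7 was lower in MRL by 3.49 ± 0.47 (adjusted p = 8.72e-05) and by 3.69 ± 0.47 (adjusted p = 5.35e-05), and 26.5% of its 50-base windows are shared with other genes.

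The strain differences of the H2 genes can be set beside their neighbours. Between the start of H2-K1 and the end of H2-M3, 3.28 Mb of chromosome 17, 94 genes were tested, 21 of them antigen presentation genes of the members or lists. Between unoperated strains 7 of these 21 (33.3%) and 12 of the other 73 genes (16.4%) were called, beside 10.4% of all genes. Between operated strains 8 of 21 (38.1%) and 8 of 73 (11%) were called, beside 12.9% of all genes. With surgery 18 of the 21 rose in each strain, while 38 of the 73 others rose and 13 fell in BL6, and 24 rose and 9 fell in MRL. Of all genes, 35.1% were called as higher in BL6 and 22.3% in MRL. These shares are counts over linked genes, without a test.

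**Figure D4:**
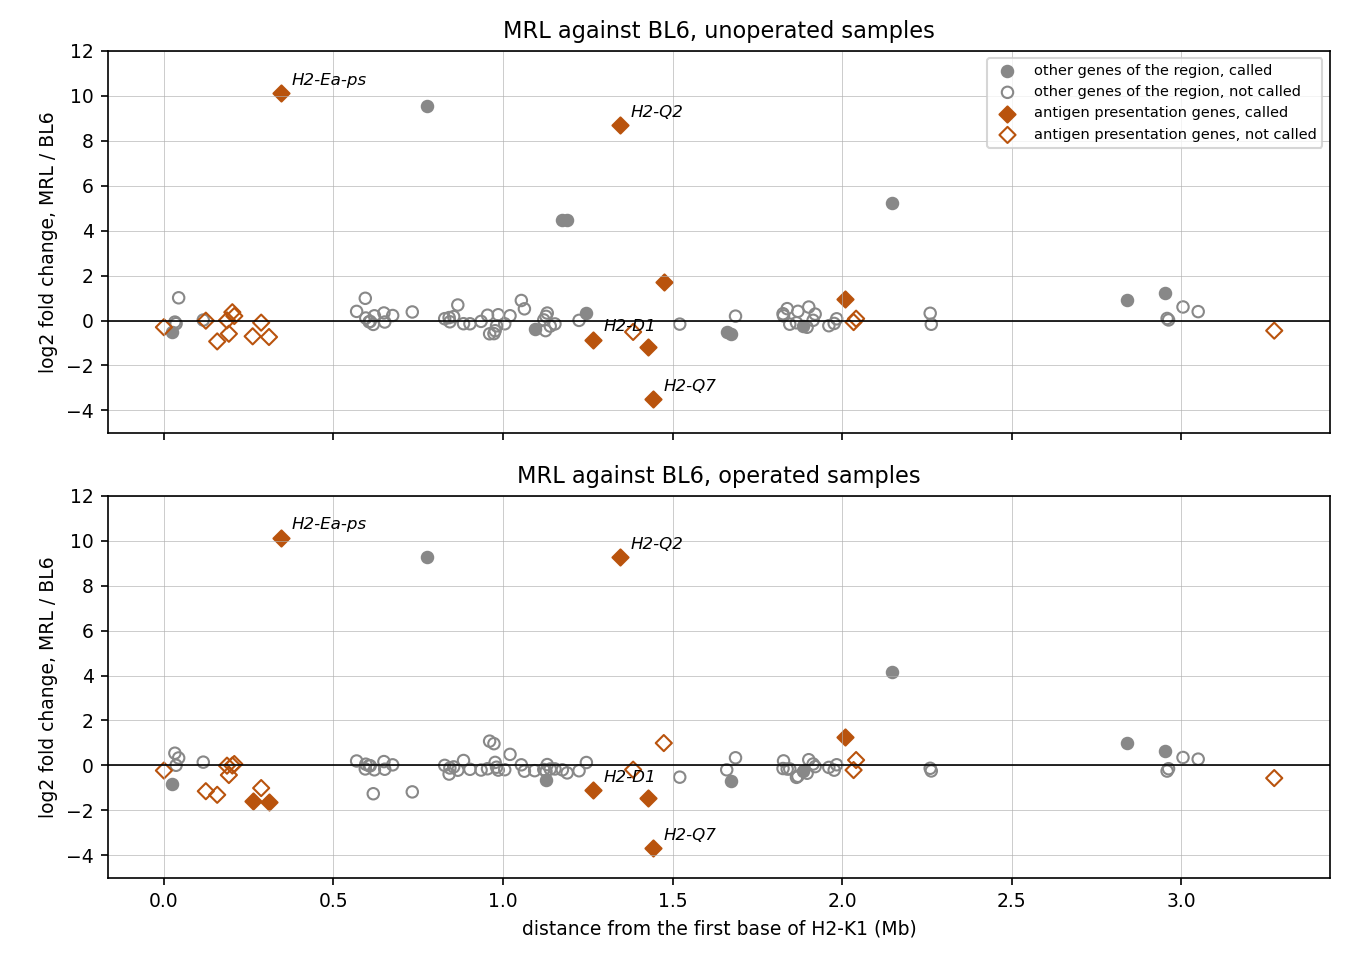
Log2 fold change of MRL against BL6 for the 94 genes of the H2 region, in unoperated (top) and operated samples (bottom), against the distance of the gene's start from the first base of H2-K1. Diamonds are antigen presentation genes, circles other genes, and filled symbols were called; the fitted values of H2-Ea-ps and H2-Q2, which had 0 or 1 counts per BL6 group, depend on the prior count.

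Genes that supply and load class I peptides were listed beside the members. Of 13 listed genes of class I processing and control, 9 rose and 1 fell with surgery in BL6, and 7 rose and 0 fell in MRL. The shares called in either direction, 76.9% and 53.8%, lie near those of all genes, 67.9% and 45%. As higher alone, 35.1% of all genes were called in BL6 and 22.3% in MRL, so rises were more frequent in the list. In MRL 6 of the 13 did not pass the test. The immunoproteasome subunits rose in both strains: Psmb8 by 1.63 and 1.25, Psmb9 by 1.60 and 1.58 and Psmb10 by 1.14 and 0.84 on the log2 scale. The proteasome activator subunit Psme2 rose by 0.95 and 0.66, and the peptide loading chaperone Pdia3 by 1.04 and 0.64. Irf1, an interferon-induced transcription factor, rose by 1.15 ± 0.14 (adjusted p = 2.02e-05) and by 1.02 ± 0.14 (adjusted p = 0.000469). Nlrc5, the class I transactivator, had log2 fold changes of 0.64 ± 0.34 (adjusted p = 0.101) and 0.71 ± 0.35 (adjusted p = 0.107). Erap1, which trims peptides, fell by 0.33 in BL6 and changed by -0.04 in MRL (adjusted p = 0.715).

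Of 14 listed genes of class II loading and control 8 were in the table, and the class II transactivator Ciita was among those that were not. In BL6 4 of the 8 rose (50%, beside 35.1% of all genes), and in MRL 2 did (25%, beside 22.3%), shares that set the list little apart from other genes. H2-DMb1, a chain of the peptide editor H2-M, rose by 2.35 ± 0.49 (adjusted p = 0.000741) and by 1.97 ± 0.51 (adjusted p = 0.00752), although 22.7% of its 50-base windows occur in H2-DMb2. H2-DMa, its partner, rose by 1.88 ± 0.42 in BL6 (adjusted p = 0.00115), with 0.74 ± 0.42 in MRL (adjusted p = 0.151). Without operated BL6 replicate 4 the values were 1.18 in BL6 (adjusted p = 0.00369) and 0.75 in MRL (adjusted p = 0.0392), and for H2-DMb1 in BL6 1.72 (adjusted p = 0.00285). Ifi30, a thiol reductase of the loading compartment, rose by 1.69 ± 0.30 in BL6 (adjusted p = 0.000189), with 0.41 ± 0.29 in MRL (adjusted p = 0.251). The difference between the strains' effects was not called for either gene (adjusted p = 0.346 and 0.186). Rfxank, a subunit of the RFX complex, rose by 0.31 in BL6 and was lower in MRL than in BL6 by 0.37 without and 0.61 with surgery, whereas the other subunits Rfx5 and Rfxap passed no test of surgery or strain.

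Markers of the cells that carry class II moved in part with the members. Ptprc, the pan-leukocyte marker, had log2 fold changes of 1.07 ± 0.62 in BL6 (adjusted p = 0.136) and 0.14 ± 0.61 in MRL (adjusted p = 0.857). The MRL value rests on unoperated replicate 1, at 13.97 CPM beside 1.61 to 2.38 in the others and 3.78 to 6.96 after surgery: without it Ptprc was higher after surgery by 1.44 ± 0.46 in MRL (adjusted p = 0.0196) and by 1.08 ± 0.41 in BL6 (adjusted p = 0.0295). Of 7 macrophage genes 5 rose with surgery in BL6 (71.4%, beside 35.1% of all genes) and 1, Mrc1, in MRL (14.3%, beside 22.3%). For the difference between the strains' effects 0 of 7 were called. The BL6 count was 4 without operated BL6 replicate 4, where Lyz2 lost its call (0.84, adjusted p = 0.218), 6 without unoperated BL6 replicate 1 and 7 without unoperated MRL replicate 1. In MRL it was still 1 without unoperated MRL replicate 1, while the 7 values then ran from 0.52 to 1.39. Their summed CPM was 36.8 to 138 in unoperated and 81.5 to 519 in operated BL6, and 73.1 to 298 in unoperated and 123 to 231 in operated MRL, the unoperated range being 73.1 to 95.4 without replicate 1. Of 7 dendritic cell genes only Zbtb46 and Cd209a were in the table; both rose in BL6, Cd209a by 3.05 ± 0.48 (adjusted p = 9.07e-05), and Cd209a in MRL by 1.16 ± 0.45 (adjusted p = 0.0453). Cd209a in BL6 was 2.23 without operated replicate 4 (adjusted p = 8.86e-05), and in MRL it lost its call without unoperated MRL replicate 1 (1.06, adjusted p = 0.0914) or unoperated BL6 replicate 1 (adjusted p = 0.0533). Zbtb46 gained a call as higher in MRL without operated BL6 replicate 4 or unoperated BL6 replicate 1. Of 5 B cell genes only Ighm was in the table, and it fell by 1.56 ± 0.37 in BL6 (adjusted p = 0.00197) and by 2.33 ± 0.39 in MRL (adjusted p = 0.000914), opposite to the class II genes. The 5 T cell markers (Cd3e, Cd3d, Cd3g, Cd4 and Cd8a) were not in the table and so were not tested.

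Summed over H2-Aa, H2-Ab1, H2-Eb1 and Cd74, class II CPM was divided by the macrophage sum of the same sample. The ratio was 1.18 to 1.76 in unoperated and 2.40 to 2.62 in operated BL6, and 0.294 to 1.03 in unoperated (0.792 to 1.03 without replicate 1) and 1.15 to 1.72 in operated MRL, so that it was higher after surgery in both strains without overlap. Operated BL6 replicate 4, with a class II sum of 1247, had the ratio 2.40, next to its group's 2.47 to 2.62. Unoperated MRL replicate 1 had the highest macrophage sum of its group, 298, but a class II sum of 87.6 inside the range of the others, 57.9 to 93.2. The part of cell numbers in the members' rise was not tested.

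**Figure D5:**
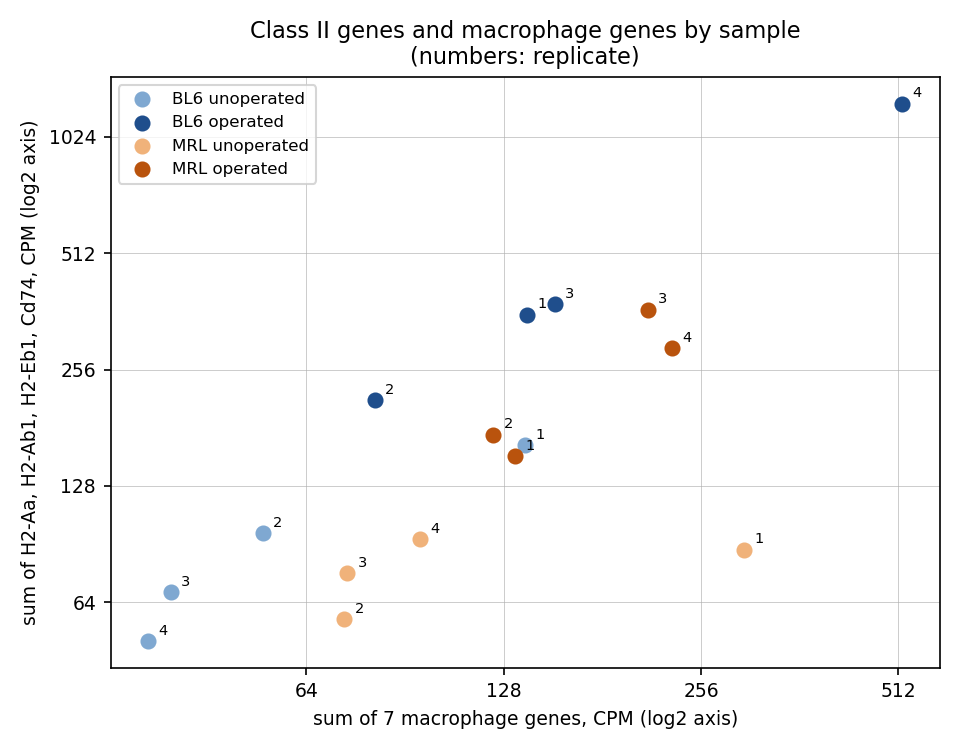
Summed CPM of H2-Aa, H2-Ab1, H2-Eb1 and Cd74 against the summed CPM of 7 macrophage genes in each sample (both log2 axes; numbers are replicates). At a macrophage sum of 123 to 153, 2 operated BL6 samples hold class II sums of 355 and 378 and 2 operated MRL samples 153 and 174. Unoperated BL6 replicate 1 lies in the same span, with a macrophage sum of 138 and a class II sum of 163. Fewer mapped reads of the MRL alleles cannot be told apart from lower levels in these sums. Unoperated MRL replicate 1 lies to the right of its group.

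Markers of cells that carry class I moved as well. Of 4 endothelial genes (Pecam1, Cdh5, Kdr and Tie1) 3 rose with surgery in BL6 (75%, beside 35.1% of all genes) and 4 in MRL (100%, beside 22.3%). Their median log2 fold changes were 1.19 in BL6 (0.53 to 1.30) and 1.17 in MRL (1.07 to 1.27). The class I chains had 1.14 and 1.21 (H2-K1), 1.34 and 1.11 (H2-D1) and 1.51 and 1.25 (B2m). The summed CPM of the 4 endothelial genes was 270.5 to 358 in unoperated and 549 to 705 in operated BL6, and 207 to 276 in unoperated and 284 to 683 in operated MRL. The class I heavy chain sum per endothelial sum overlapped between operated and unoperated samples in both strains (0.519 to 0.715 against 0.566 to 0.928 in BL6, 0.492 to 0.785 against 0.484 to 0.932 in MRL). Operated MRL replicate 4 had the lowest endothelial sum of its group, 284 beside 568 to 683. It also had the lowest H2-D1 and B2m, but not the lowest H2-K1 (117, beside 115 in replicate 2). Its class I heavy chain sum was 265, beside 275 in replicate 2, and its ratio, 0.932, was the highest of the group. Of 5 muscle fibre genes 3 fell in BL6 and 2 in MRL. The called shares, 60% and 40%, lie near those of all genes, 67.9% and 45%. Without operated BL6 replicate 4 the counts were 2 and 3, and in MRL 1 without either unoperated replicate 1. Of 3 fibroblast genes 1 rose in BL6 (33.3%, beside 35.1% of all genes) and 0 in MRL. Col1a1, a collagen, was the gene that rose, by 2.86, and by 1.497 without operated replicate 4 (adjusted p = 0.0187). The part of these cells in the members' rise was not tested.

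The members also varied together from sample to sample. Over the 16 samples, with log2 CPM centred on the strain mean, Pearson's r between H2-Aa, H2-Ab1, H2-Eb1 and Cd74 was 0.993 to 0.999, that between H2-D1 and B2m was 0.994, and the lowest among members was 0.785, between Tap1 and Cd74. Since all rise with surgery and come from the same libraries, these values describe the groups as much as the genes.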

How the data were processed

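Rotator cuff muscle RNA of 16 samples was analysed from the count table. The counts are whole numbers per gene as deposited by the authors, unscaled. The authors' deposited table gives log2 fold changes, p-values and false discovery rates per gene, per the file headers. FastQC, STAR, edgeR and mm10 are named in the submitters' processing notes; the counting program, its annotation and its use of strand are not given in the sources used here. Groups and replicate numbers come from the labels.

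Counts were scaled with TMM factors and filterByExpr (minimum count 10) removed 1 of 11710 genes. The edgeR quasi-likelihood test (edgeR 4.0.16, R 4.3.3) was fitted to all 16 samples, with 1 mean per group and Benjamini-Hochberg adjustment over 11709 genes; it was tested on simulated data. CPM are TMM-scaled, and log2 CPM used a prior count of 2. Total counts were 24323862 to 43552964; a floor of 3 counts was 0.0718 to 0.122 CPM and covers counting error only. Exon lengths, coordinates and transcripts are from GENCODE M21 (GRCm38), where 11708 of 11710 IDs were found. Promoters are from RefSeq (GRCm38.p6), with 7 of 10 members matched.

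Alternatives were DESeq2 size factors, total counts, no filter, a filter of 1 CPM in 4 samples, DESeq2 1.42.0, limma 3.58.1 (voom), a replicate block, only the groups compared, and leaving out samples; the refits of the pathway and marker lists without single samples were chosen after seeing the data. No pair of replicates agreed within sampling noise. The text names the 10 members, genes of the pathway and marker lists, H2 neighbours by counts, and the 5 genes most like the class I and class II means. The members and lists were chosen with earlier results of these data known.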

Additional observations from a re-analysis of the deposited data

Results flagged for a closer look

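Of 43 groups of 4 samples checked for a sample far from the others, 5 had one. For independent groups chance gives about 1 in 20, or 5%. These groups share samples and genes that vary together, so the count cannot be judged against that share. In 3 of them this was operated BL6 replicate 4: H2-Aa stood at 279 CPM beside 52.1 to 88.1 in the other operated BL6 samples, H2-Eb1 at 241 beside 38.0 to 71.3, and Cd74 at 475 beside 80.6 to 140.2. In that sample the macrophage genes were high as well, with a sum of 519 CPM beside 81.5 to 153, and its class II sum per macrophage sum was 2.40, beside 2.47 to 2.62. H2-Ea-ps stood at 0.0387 CPM, which is 1 count, in operated BL6 replicate 2, beside 0 in the other 3. A lone count beside counts of 0 is always flagged by this rule. In unoperated MRL replicate 2 H2-Ea-ps also stood at 2.56 CPM, the lowest of its group, beside 4.62 to 5.01.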

How the results depend on the processing

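Over 25 alternatives, 16 of which leave out 1 sample each, no member's surgery effect changed direction; all 250 values in BL6 kept their call, and in MRL 242 of 250 did and 8 did not. With total counts as the only scaling, the median of all genes moved from 0.04 to 0.18 for surgery in BL6 and from 0.01 to 0.15 for unoperated strains; higher calls went from 48.4% to 70.3% between unoperated strains and from 59.1% to 72.2% between operated strains. Under it the interaction had 14 called genes in place of 29, and was -0.087 for H2-K1 and -0.025 for Tap1; between unoperated strains 0 members were called, with 0.028 for Tapbp, 0.017 for H2-Aa and 0.052 for Cd74; between operated strains 1 was called. The interaction had 250 called genes with DESeq2 and 1 to 69 when 1 sample was left out (69 without operated BL6 replicate 2, 36 without operated BL6 replicate 4). Between operated strains 1 of 10 members was called with limma voom, with only the groups compared and without operated BL6 replicate 4 and unoperated MRL replicate 1 together, and 1 to 4 when 1 sample was left out. Voom gave 0.045 for H2-Aa and 0.023 for Cd74 between unoperated strains. With only the groups compared, 2 members (H2-D1 and Tap1) and 2438 genes in place of 1216 were called between unoperated strains, and 575 in place of 1507 between operated strains.

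The replicate block gave 2 called genes for the interaction and 1 member between operated strains, and changed no other call of members. Samples of 1 number share only that number: over 24 pairs from different groups, the correlation of their deviations was 0.0427 on average (-0.474 to 0.452), beside -0.00918 for different numbers.

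Leaving out 1 sample gave these ranges. Surgery in MRL called 3490 to 6145 genes, the lowest without operated MRL replicate 3. The interaction was -0.048 to 0.32 for H2-K1, -0.36 to 0.0082 for H2-D1, -0.062 to 0.48 for Tap1 and -0.27 to 0.066 for Tap2. Between unoperated strains H2-Aa was -0.30 to 0.33 and Cd74 -0.27 to 0.28; between operated strains H2-K1 was -0.35 to 0.012, B2m -0.24 to 0.13 and Tap2 -0.066 to 0.26. With operated BL6 replicate 4 and unoperated MRL replicate 1 both left out, a setting chosen after seeing the data, the interaction was 0.14 for H2-D1, 0.11 for B2m, 0.19 for Tap2, 0.0082 for Tapbp, 0.051 for H2-Eb1 and 0.038 for Cd74, and the operated strain difference 0.012 for H2-K1 and 0.13 for B2m. No value past its test's threshold was among those that changed sign. Depth did not limit the members, the lowest of which, Tap1, stood at 2.84 CPM or more, but H2-Ea-ps and H2-Q2 in BL6 lay at or under the floor of 3 counts.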

Other observations

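The genes whose log2 CPM followed the class II mean (H2-Aa, H2-Ab1, H2-Eb1 and Cd74) most closely over the 16 samples, centred on the strain mean, were Arf4 (Pearson's r 0.989), Eln (0.985), Il13ra1 (0.983), Pf4 (0.982) and Sertad4 (0.982). Eln encodes elastin and rose with surgery by 3.23 in BL6 and by 2.03 in MRL on the log2 scale, from a mean of 23.1 to 217 CPM in BL6; without operated BL6 replicate 4 its BL6 value was 2.53. Pf4, a chemokine of platelets and macrophages, rose by 1.85 (1.23 without that sample) and 1.14. The genes closest to the class I mean (H2-K1, H2-D1 and B2m) were Pgrmc1 (0.982), Tuba1b (0.979), Mis18a (0.978), Myl12b (0.977) and Bst2 (0.976). Bst2, an interferon-induced antiviral membrane protein, rose by 1.94 (adjusted p = 3.84e-05) and by 1.82 (adjusted p = 0.000658). Each r is a description over samples that share their libraries and their surgery groups.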
